A study of Homo sapiens with 4 samples.

Results

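This is an account of 10 genes that the transcriptional co-activators YAP and TAZ are known to switch on, among 58884 Ensembl genes in a table of RNA levels from human thyroid cancer cells. The genes were chosen by symbol as known targets, with no rule on their levels: CCN1, CCN2, ANKRD1, AMOTL2, AJUBA, LATS2, CRIM1, F3, THBS1 and TEAD1. The choice was made with earlier results of these data known, so the shares of all genes given below are descriptive. Each symbol matched 1 Ensembl identifier, so all 10 were measured. The study overexpressed CRABP1, a cytoplasmic retinoic acid carrier, from a vector, with the empty vector as control, in FTC-133, a follicular thyroid carcinoma line, and in 8505C, an anaplastic thyroid carcinoma line. The 4 groups were FTC-133 with empty vector, FTC-133 with CRABP1, 8505C with empty vector and 8505C with CRABP1, and each held 1 library of total RNA. No group held untransfected cells, and the labels do not say whether the cells were pools or clones or how long they carried the vector.

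YAP and TAZ (the products of YAP1 and WWTR1) have no DNA-binding domain of their own and act on genes through the TEAD factors. The Hippo kinases, ending in LATS1 and LATS2, phosphorylate both co-activators and keep them out of the nucleus when cells are dense, rounded or on soft matrix. Several targets code for proteins that feed back on the pathway, such as LATS2, AMOTL2 and AJUBA, while others code for secreted or surface proteins that act on matrix and neighbouring cells, such as CCN1, CCN2 and THBS1.

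TEAD factors bind a core of GGAATG, read on either strand. The promoters that could be matched to members are shown first because most of them carry this core. RefSeq promoter sequences (GRCh38.p14), each reaching from 250 bases before to 50 after an annotated start, were matched for 7 of the 10 members, with 9 windows among them; CCN1, CRIM1 and TEAD1 were not matched. GGAATG was found on one of the strands in 6 of the 9 windows, which belong to 6 of the 7 genes, against 14.0% of all 35116 windows. The CCN2 window held it 3 times, which 0.128% of all windows did, and the ANKRD1 window held it 2 times, which 1.37% did. Distances are counted from the annotated start to the first base of the match. The CCN2 matches lie 169, 104 and 95 bases before the start, within chr6:131951373-131951622 (minus strand), and the ANKRD1 matches 220 and 128 bases before the start, within chr10:90921088-90921337 (minus strand). Capitals mark GGAATG in both of these sequences.
CCN2: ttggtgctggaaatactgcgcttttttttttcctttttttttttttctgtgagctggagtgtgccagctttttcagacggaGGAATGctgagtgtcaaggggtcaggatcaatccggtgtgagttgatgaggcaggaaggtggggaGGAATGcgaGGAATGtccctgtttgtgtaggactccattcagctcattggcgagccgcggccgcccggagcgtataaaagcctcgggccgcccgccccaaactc
ANKRD1: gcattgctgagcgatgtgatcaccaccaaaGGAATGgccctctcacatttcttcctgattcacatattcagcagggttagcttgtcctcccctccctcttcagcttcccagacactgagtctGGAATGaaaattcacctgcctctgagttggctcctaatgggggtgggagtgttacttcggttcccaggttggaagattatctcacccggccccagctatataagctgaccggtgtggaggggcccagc

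THBS1, AJUBA and AMOTL2 held 1 match each, shown here with 20 bases on either side to let the surroundings be compared. They lie 46 bases before the start of THBS1 (chr15:39581013-39581058, plus strand), and 59 and 69 bases before the downstream one of the 2 annotated starts of AJUBA (chr14:22976876-22976921, minus strand) and of AMOTL2 (chr3:134374491-134374536, minus strand). Capitals again mark the core, which in AMOTL2 is on the other strand and reads CATTCC.
THBS1: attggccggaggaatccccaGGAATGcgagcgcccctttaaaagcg
AJUBA: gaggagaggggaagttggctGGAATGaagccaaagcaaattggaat
AMOTL2: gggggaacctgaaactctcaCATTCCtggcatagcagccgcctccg
The match in LATS2 begins at base 10 after the start. F3 had no GGAATG in its window and held 2 matches to TGANTCA, the AP-1 motif, which reads the same on both strands and was counted once per position; 0.515% of all windows hold at least 2. AP-1 is known to act together with TEAD factors at many YAP and TAZ targets. The F3 matches, in capitals, start 223 and 210 bases before the start, within chr1:94541760-94542009 (minus strand).
F3: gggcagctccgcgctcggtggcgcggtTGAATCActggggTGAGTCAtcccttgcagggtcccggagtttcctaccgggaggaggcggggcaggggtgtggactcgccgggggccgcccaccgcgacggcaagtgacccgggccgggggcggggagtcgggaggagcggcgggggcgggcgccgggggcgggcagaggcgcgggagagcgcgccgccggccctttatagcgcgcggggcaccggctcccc
TGANTCA was also found once in the ANKRD1 window, 195 bases before its start, and in 7.71% of all windows. The CArG box of serum response factor was found in 0 of the 9 member windows and in 1.29% of all windows. A match describes the letters of the window and is not evidence that a factor binds there.

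Levels are given in TPM, a read count per gene length that sums to 1000000 in each library, so levels of different genes can be set against each other. Where 2 values are given for a line, the vector library comes first and the CRABP1 library second. Between 19174532 and 20331693 reads lay behind a library, and between 934 and 111328 reads behind a member. CRABP1 itself had 0 reads in each of the vector libraries, where 3 reads would give 0.555 TPM for FTC-133 and 0.594 for 8505C, and at 385 and 537 TPM in the CRABP1 libraries of FTC-133 and 8505C. Of 8 thyroid markers, 4 reached 1 TPM in FTC-133 and 2 in 8505C, and of 5 epithelial markers 4 and 2. The epithelial markers summed to 171 and 169 TPM in FTC-133 but to 1604 and 1365 TPM in 8505C, where KRT8 and KRT18 made up nearly all of the sum. NKX2-1 was at 44.7 and 17.7 TPM in FTC-133 and 118 and 113 TPM in 8505C, PAX8 was at 100.1 and 143 TPM in FTC-133 and under 1 TPM in 8505C, and TG, TSHR and SLC5A5 were under 1 TPM in all 4 libraries, as was CDH1. Intervals are 95% Clopper-Pearson intervals on the reads and cover counting error only. Within a line, 1 library stands against 1, with no replicate error, so genes are there described as higher or lower without a p-value; whether the libraries came from separate cultures is not stated.

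With CRABP1, most members were slightly lower in FTC-133 and slightly higher in 8505C. In FTC-133, 8 of the 10 were below their vector level, against 42.2% of 19899 genes averaging 1 TPM or more and 43.6% of 5095 protein-coding genes averaging 30 TPM or more. In 8505C, 8 of the 10 were above it, against 54.7% of 17561 genes and 57.2% of 4794 such protein-coding genes. Lower in FTC-133 and higher in 8505C were 6 members, CCN1, CCN2, LATS2, CRIM1, THBS1 and TEAD1, against 22.2% of genes measured in both lines and 26% of the protein-coding ones averaging 30 TPM or more; LATS2 in 8505C had a log2 ratio of 0.01, which was -0.01 with median-ratio scaling. Counting intervals lay on opposite sides of 1 in the 2 lines for 5 members, all of these but LATS2, against 9.24% of genes and 18.3% of the protein-coding ones averaging 30 TPM or more. ANKRD1 and AJUBA were higher in both lines, although AJUBA in FTC-133 had a log2 ratio of 0.07 that was 0.0097 with median-ratio scaling and 0.02 without mitochondrially encoded genes. AMOTL2 and F3 were lower in both, with an interval for AMOTL2 in FTC-133 that included 1. The median log2 ratio of TPM + 1 over the members was -0.16 in FTC-133 and 0.24 in 8505C, where all genes tested had 0.06 and 0.02. A 2-fold difference on this scale was reached by 1 member, THBS1, lower in FTC-133, where 4.92% of genes were lower and 6.02% higher by 2-fold. In 8505C 0 members reached it, where 3.7% of genes were higher and 4.07% lower. Of the protein-coding genes averaging 30 TPM or more, 0.53% were lower and 1.37% higher by 2-fold in FTC-133, and 0.0834% lower and 0.104% higher in 8505C. In bulk RNA, fewer cells with a transcript and less transcript per cell cannot be told apart.

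**Figure D1:**
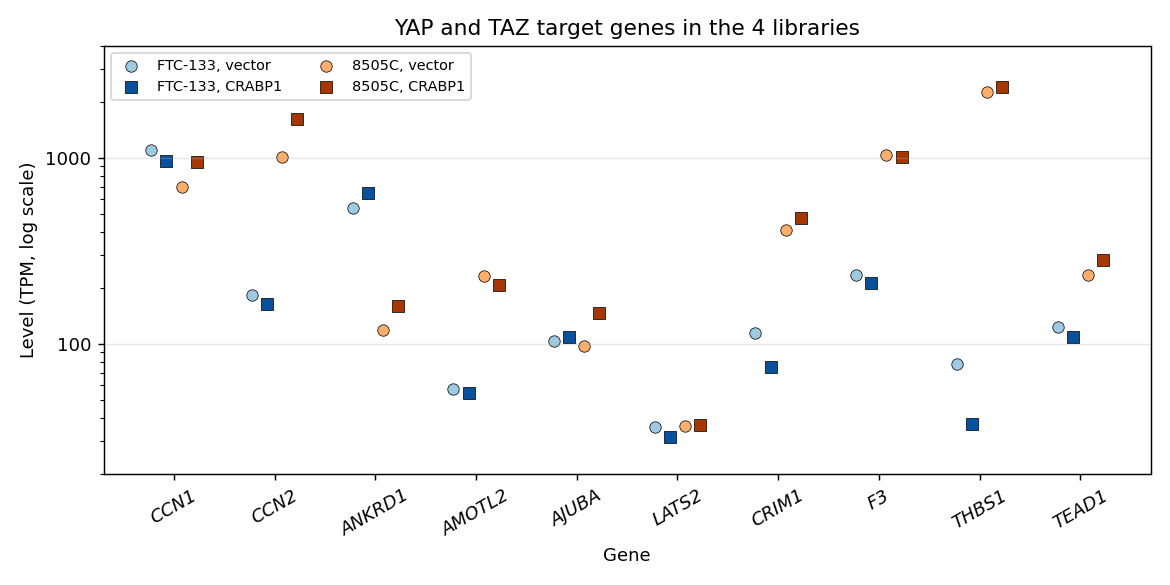
Level of each of the 10 genes in TPM on a log axis, with 1 point per library (blue, FTC-133; orange and brown, 8505C; circles, vector; squares, CRABP1). THBS1 spans the widest range, from 37.2 to 2397 TPM, and LATS2 stays between 31.7 and 36.5 TPM.

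Among the secreted members, CCN1 and CCN2 are matricellular proteins that bind integrins and heparan sulfate and promote adhesion, migration and matrix deposition. CCN1 (ENSG00000142871, chromosome 1, 85580761 to 85583962, plus strand; GRCh38 in GENCODE 29, as for all genes below) was at 1101 and 968 TPM in FTC-133, and at 701 and 948 TPM in 8505C. The CCN1 level was thus lowest in 8505C with vector, and the 8505C library with CRABP1 came close to the FTC-133 library with CRABP1. Its TPM ratio of CRABP1 over vector was 0.879 (interval 0.858 to 0.900) in FTC-133 and 1.35 (1.31 to 1.39) in 8505C.

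CCN2 (ENSG00000118523, chromosome 6, 131948176 to 131951373, minus strand), whose promoter holds the 3 TEAD cores shown above, was at 184 and 164 TPM in FTC-133 and at 1014 and 1623 TPM in 8505C. Both 8505C libraries stood above both FTC-133 libraries. The ratio with CRABP1 was 0.895 (0.843 to 0.950) in FTC-133 and 1.60 (1.56 to 1.64) in 8505C. In 8505C this was the largest ratio of the 10 members, and it ranked 14 from the top among 4794 protein-coding genes averaging 30 TPM or more, a group that includes CRABP1. Within a library, CCN1 was 6.0-fold and 5.89-fold above CCN2 in FTC-133, whereas in 8505C CCN2 was 1.45-fold and 1.71-fold above CCN1.

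THBS1 (ENSG00000137801, chromosome 15, 39581079 to 39599466, plus strand) codes for thrombospondin 1, a matrix glycoprotein that restrains blood vessel growth through CD36 and activates latent TGF-beta. Its level was 77.5 and 37.2 TPM in FTC-133 and 2257 and 2397 TPM in 8505C. It was the most abundant member in 8505C, with 36.7% of the summed TPM of the 10 genes in the vector library and 32.9% in the CRABP1 library, against 3.01% and 1.55% in FTC-133. With CRABP1 it was 2.08-fold lower in FTC-133 (1.97 to 2.21), which ranked 25 from the bottom among 5095 protein-coding genes averaging 30 TPM or more, of which 0.53% were lower by 2-fold. In 8505C the ratio was 1.06 (1.05 to 1.07). Beside this, the summed level of 6 fibroblast markers was 649 and 388 TPM in FTC-133, with 5 of the 6 at 1 TPM or more in both libraries and a median log2 ratio of -0.08. Of these 5, 3 were lower with CRABP1, among them the fibrillar collagen COL1A1 at 388 and 175 TPM, and 2 were higher, LUM at 35.3 and 36.4 TPM and PDGFRB at 9.60 and 18.5 TPM. In 8505C the sum was 56.9 and 78.4 TPM, with 5 of 6 and 4 of 6 at 1 TPM or more. Most of that sum was COL3A1, at 50.0 and 66.0 TPM. None of the 6 was at 0 in any library, and the part of these markers in the THBS1 values was not tested.

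CRIM1 (ENSG00000150938, chromosome 2, 36355926 to 36551135, plus strand), a membrane protein that binds bone morphogenetic proteins, was at 114 and 74.9 TPM in FTC-133 and at 412 and 477 TPM in 8505C. The FTC-133 library with CRABP1 was the lowest of the 4, 1.52-fold below its vector library (1.45 to 1.60). In 8505C the ratio was 1.16 (1.13 to 1.18). By a 1.5-fold rule, THBS1 and CRIM1 were the 2 members lower in FTC-133, against 9.69% of genes averaging 1 TPM or more and 2.32% of the protein-coding genes averaging 30 TPM or more. No member was higher there by this rule, as 13.1% and 4.22% of these genes were. FEZ2, a gene on the opposite strand whose annotated span overlaps that of CRIM1, was at 16.4 and 15.9 TPM in FTC-133 and 20.7 and 21.8 TPM in 8505C. Its reads came to at most 26.6% of those of CRIM1. Without a stated strand setting, reads of the shared stretch cannot be assigned to one of the 2 genes.

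F3 (ENSG00000117525, chromosome 1, 94529225 to 94541800, minus strand) codes for tissue factor, the cell surface receptor that starts blood coagulation. It was at 236 and 211 TPM in FTC-133 and at 1042 and 1005 TPM in 8505C, so the 2 lines did not overlap. With CRABP1 it was lower in both lines by little, 1.12-fold in FTC-133 (1.06 to 1.17) and 1.04-fold in 8505C (1.01 to 1.06). TFPI2, a serine protease inhibitor related to the tissue factor pathway inhibitor TFPI, was at 280 and 1424 TPM in FTC-133 and at 284 and 221 TPM in 8505C. The level of TFPI2 was therefore 1.19-fold that of F3 in FTC-133 with vector and 6.74-fold with CRABP1, while F3 was 3.67-fold and 4.55-fold above TFPI2 in 8505C. TFPI itself was at 24.7 and 34.9 TPM in FTC-133 and at 178 and 170 TPM in 8505C. F3 stood above TFPI in every library, 9.55-fold and 6.05-fold in FTC-133 and 5.86-fold and 5.92-fold in 8505C.

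Of the nuclear members, ANKRD1 (ENSG00000148677, chromosome 10, 90912096 to 90921276, minus strand) codes for a stretch-responsive ankyrin repeat protein of nucleus and sarcomere and is a common readout of YAP activity. It was at 539 and 646 TPM in FTC-133 and at 119 and 160 TPM in 8505C. Both FTC-133 libraries stood above both 8505C libraries, as they did, by a narrower margin, for CCN1. With CRABP1 the ratio was 1.20 (1.16 to 1.24) in FTC-133 and 1.35 (1.25 to 1.45) in 8505C.

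TEAD1 (ENSG00000187079, chromosome 11, 12674591 to 12944483, plus strand), a DNA-binding partner of YAP and TAZ, was at 124 and 109 TPM in FTC-133 and at 234 and 283 TPM in 8505C. Both 8505C libraries stood above both FTC-133 libraries. The ratio with CRABP1 was 0.884 (0.854 to 0.915) in FTC-133 and 1.21 (1.18 to 1.24) in 8505C. TEAD1 was the most abundant of the 4 TEAD genes in every library. TEAD2 was at 24.4 and 32.1 TPM in FTC-133 and at 35.4 and 36.3 TPM in 8505C. TEAD3 was at 24.9, 23.1, 29.7 and 33.7 TPM and TEAD4 at 11.9, 15.2, 27.4 and 24.9 TPM in the same order of libraries.

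Of the 3 members that feed back on the pathway, AJUBA (ENSG00000129474, chromosome 14, 22971174 to 22982642, minus strand), a LIM protein of cell junctions that binds and restrains LATS kinases, was at 103 and 109 TPM in FTC-133 and at 96.8 and 146 TPM in 8505C. The 8505C library with CRABP1 stood above the other 3 libraries. Its ratio was 1.05 (1.0037 to 1.10) in FTC-133 and 1.51 (1.44 to 1.58) in 8505C, where it ranked 30 from the top of the 4794 genes. CCN2 and AJUBA were the 2 members higher in 8505C by the 1.5-fold rule, against 7.39% of all genes tested and 0.626% of the protein-coding genes averaging 30 TPM or more. AJUBA passed it narrowly, with a log2 ratio of 0.588. That ratio was 0.565 with median-ratio scaling and 0.580 without mitochondrially encoded genes, both short of 1.5-fold. No member was lower there by this rule, as 7.64% and 0.563% of these genes were.

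AMOTL2 (ENSG00000114019, chromosome 3, 134355874 to 134375479, minus strand), an angiomotin-like scaffold that holds YAP at junctions and activates LATS2, was at 57.5 and 54.5 TPM in FTC-133 and at 231 and 207 TPM in 8505C. With CRABP1 it was 1.11-fold lower in 8505C (1.08 to 1.15), and in FTC-133 the interval of its ratio of 0.949 included 1 (0.888 to 1.01). LATS2 (ENSG00000150457, chromosome 13, 20973032 to 21061547, minus strand), the kinase that phosphorylates YAP and TAZ, was at 35.6 and 31.7 TPM in FTC-133 and at 36.1 and 36.5 TPM in 8505C. It was the least abundant member in all 4 libraries. Its ratio was 0.892 (0.817 to 0.975) in FTC-133 and 1.01 (0.925 to 1.10) in 8505C, the second interval including 1. Its partner kinase LATS1 was lower still, at 21.8 and 21.4 TPM in FTC-133 and 25.4 and 28.1 TPM in 8505C.

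**Figure D2:**
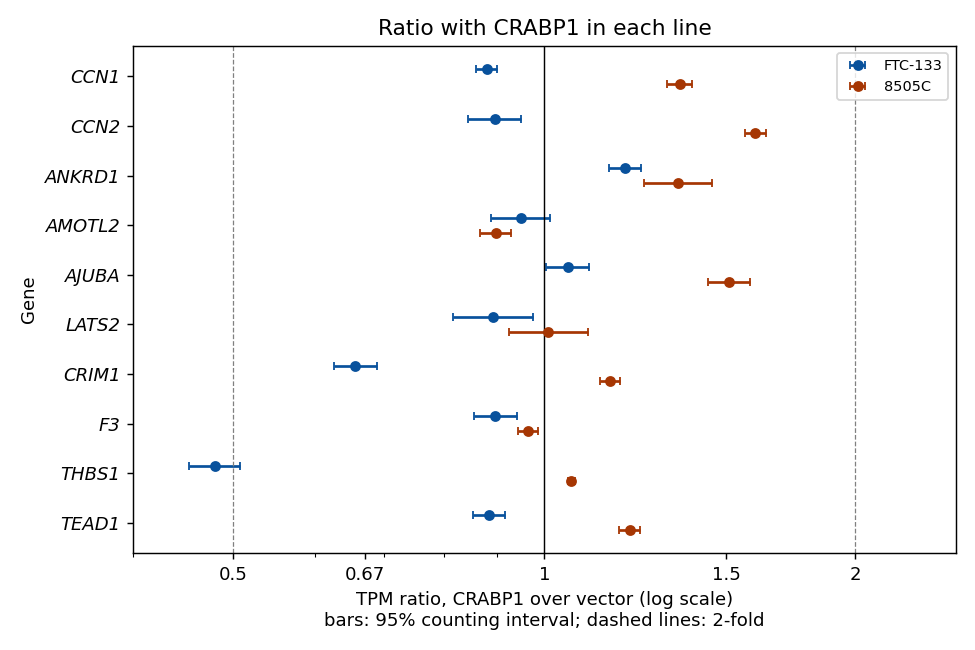
TPM ratio of the CRABP1 library over the vector library for each of the 10 genes on a log axis, in FTC-133 (blue) and 8505C (brown); bars are 95% counting intervals and dashed lines mark 2-fold. THBS1 in FTC-133 lies at 0.480, beyond the 2-fold line, and CCN2 in 8505C at 1.60.

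The members were also ranked by log2 ratio among the protein-coding genes averaging 30 TPM or more in each line. In 8505C, CCN1 and ANKRD1 ranked 87 and 91 from the top and TEAD1 320, while AMOTL2 ranked 553 from the bottom. In FTC-133, CRIM1 ranked 108 from the bottom, and CCN1, CCN2, LATS2, F3 and TEAD1 lay close together, at log2 ratios between -0.19 and -0.16. ANKRD1 ranked 958 from the top there.

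**Figure D3:**
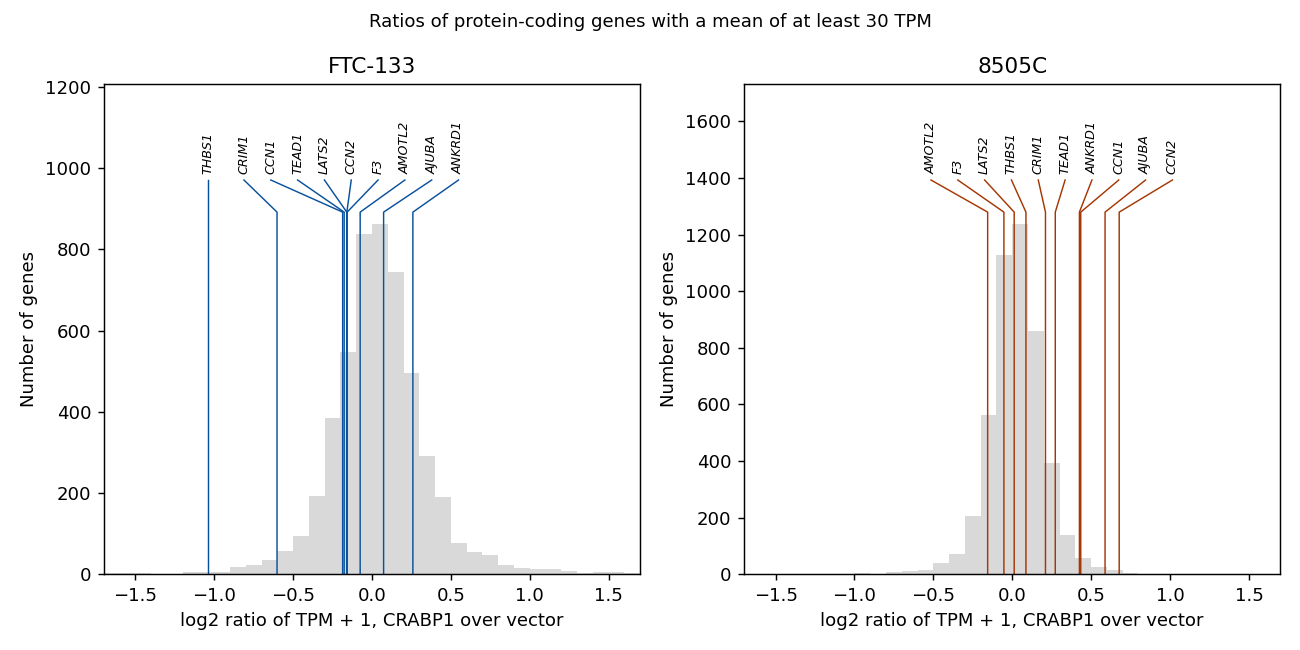
Histogram of the log2 ratio of TPM + 1, CRABP1 over vector, for protein-coding genes averaging 30 TPM or more in each line, with the 10 genes as labelled lines and genes beyond the axis not drawn. In FTC-133 most members lie left of the centre and THBS1 at -1.04; in 8505C CCN2 lies at 0.68 and AJUBA at 0.59, in the right tail.

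Over both lines, 0 of the 10 members passed with CRABP1 by limma, fitted to all 19513 genes averaging 1 TPM or more with the cell line as a term and 1 residual degree of freedom. The adjusted p-values of the members by limma lay between 0.920 and 0.979, and 0.00512% of genes, CRABP1 alone, passed. ANKRD1 had the smallest unadjusted p among them, 0.0318 by limma, where the log2 difference was 0.34 (SE 0.10) and ANKRD1 was higher in 2 of 2 lines; its adjusted p was 0.920. It was the 1 member with an unadjusted p under 0.05, as 923 genes had. THBS1 had a difference of -0.48 (SE 0.31), lower in 1 of the 2 lines, and CCN2 0.26 (SE 0.24), higher in 1 of the 2. A test of whether the effect differs between the lines was not possible, since it would leave no residual degree of freedom.

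Most members differed more between the lines than with CRABP1. The libraries of the lines did not overlap for 9 of the 10, all but AJUBA, against 73.4% of genes tested. By limma with transfection as a term, 7 of the 10 differed between the lines, 6 higher in 8505C (THBS1, CCN2, CRIM1, F3, AMOTL2 and TEAD1) against 13% of all genes tested, and ANKRD1 lower against 22.2%; in either direction 35.2% of all genes passed and 44% of the protein-coding genes averaging 30 TPM or more. This test uses the 2 transfections of a line as its replicates and speaks of these 4 libraries, not of the tumour types. The call was lost for all 7 when genes with low values were kept, where limma called 0 of 58884 genes and the smallest adjusted p of a member was 0.119 by limma. TEAD1 also lost its call in limma with no trend. The line difference exceeded both CRABP1 ratios on the log2 scale in 7 of the 10.

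THBS1 had the largest line difference of the members, 5.41 on the log2 scale (SE 0.31, adjusted p = 0.00495 by limma). In plain TPM the 8505C level was 29.1 times that of FTC-133 between the vector libraries (28.2 to 30.1) and 64.5 times between the CRABP1 libraries (61.5 to 67.6). CCN2 was 5.52-fold and 9.88-fold higher in 8505C, CRIM1 3.61-fold and 6.37-fold and TEAD1 1.89-fold and 2.59-fold, with vector and with CRABP1. For these 4 genes the gap was wider with CRABP1, and whether the gap itself changed was not tested. F3 was 4.42-fold and 4.76-fold higher in 8505C and AMOTL2 4.02-fold and 3.80-fold, gaps of similar size with either vector. ANKRD1 was 4.54-fold lower in 8505C with vector and 4.04-fold lower with CRABP1 (log2 difference -2.09, SE 0.10, adjusted p = 0.00423 by limma).

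CCN1, AJUBA and LATS2 did not pass, with limma log2 differences of -0.34 (SE 0.19, adjusted p = 0.243), 0.16 (SE 0.16, adjusted p = 0.474) and 0.11 (SE 0.12, adjusted p = 0.502). Beside the line differences, the epithelial keratin KRT8 was at 88.0 and 87.9 TPM in FTC-133 and 564 and 496 TPM in 8505C, and KRT18 at 74.9 and 73.6 TPM and at 1039 and 869 TPM. The 5 endothelial markers summed to between 6.56 and 8.92 TPM in FTC-133 and between 101 and 108 TPM in 8505C, nearly all of it CDH5, at 103 and 97.9 TPM in 8505C and at 0 and 0.125 TPM in FTC-133. The other 4 were at 3.91 TPM or less everywhere, and the 5 leukocyte markers summed to at most 56.8 TPM, nearly all CD14, with LYZ at 0 in all 4 libraries. CD3E was at 0 in 3 of the 4. The part of these markers in the line differences was not tested.

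**Figure D4:**
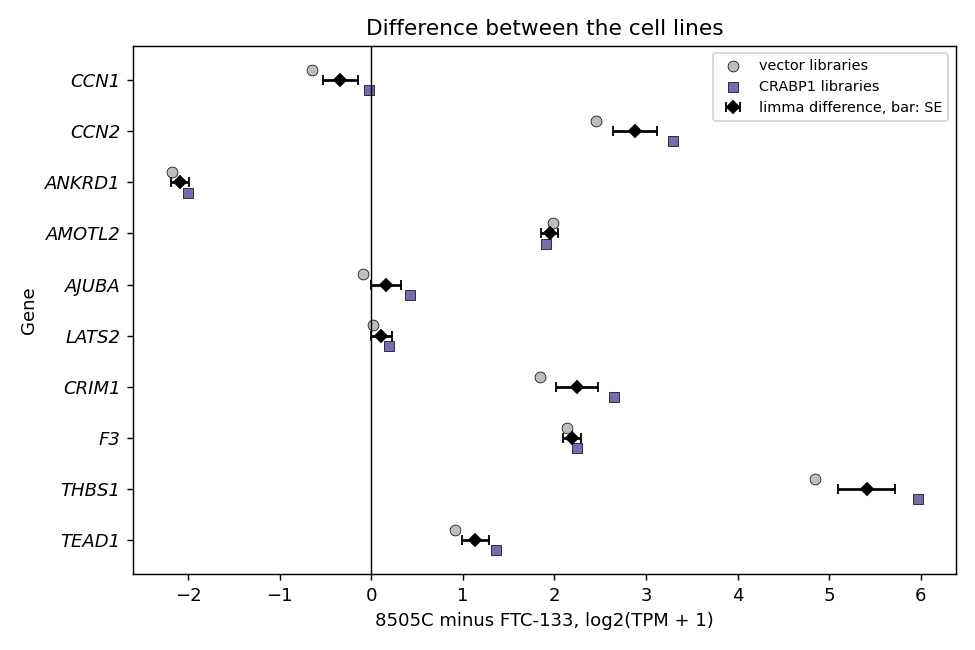
Difference between the lines, 8505C minus FTC-133, on the log2(TPM + 1) scale for each of the 10 genes; circles compare the vector libraries, squares the CRABP1 libraries, and diamonds with bars give the limma difference and its SE. The limma differences run from -2.09 for ANKRD1 to 5.41 for THBS1, and the single comparisons from -2.17 (ANKRD1, vector) to 5.97 (THBS1, CRABP1), with CCN1 at -0.65 for vector and -0.03 for CRABP1.

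The order of levels within a library followed the line. In FTC-133 with vector it ran CCN1, ANKRD1, F3, CCN2, TEAD1, CRIM1, AJUBA, THBS1, AMOTL2 and LATS2. With CRABP1 the order kept its first 5 genes, TEAD1 and AJUBA were equal to within a factor of 1.004, and THBS1 came just above LATS2. In 8505C with vector the order was THBS1, F3, CCN2, CCN1, CRIM1, TEAD1, AMOTL2, ANKRD1, AJUBA and LATS2. F3 and CCN2 differed there by a factor of 1.03 and TEAD1 and AMOTL2 by 1.01. With CRABP1, CCN2 stood above F3 by a factor of 1.61. F3 and CCN2 thus exchanged places between the 2 libraries of the line, and with no replicates their order, like that of TEAD1 and AMOTL2, cannot be told. The 10 genes together made up 0.257% and 0.241% of all TPM for FTC-133 and 0.614% and 0.728% for 8505C.

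Genes with the pattern nearest to CCN1 and CCN2 were sought by the Euclidean distance between the 4 centred log2(TPM + 1) values, among 10569 protein-coding genes averaging 5 TPM or more. Nearest to CCN2 were RCAN2 (distance 0.128), DUSP4 (0.245) and TRIM58 (0.322). RCAN2 was at 7.87 and 6.43 TPM in FTC-133 and 47.0 and 68.7 TPM in 8505C. Of the members, CRIM1 was at place 106, F3 at 131 and AMOTL2 at 227 in nearness to CCN2. MFSD14B, ABHD6 and E2F5 were nearest to CCN1 (distances 0.0664, 0.0743 and 0.0775), and CCN2 stood at place 10036. These distances rest on 4 libraries.

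Of the co-activators, YAP1 was at 92.6 and 97.7 TPM in FTC-133 and at 129 and 133 TPM in 8505C. WWTR1, which codes for TAZ, was at 65.2 and 47.1 TPM in FTC-133 and at 93.7 and 78.1 TPM in 8505C. WWTR1 was thus lower with CRABP1 in both lines, by 1.39-fold (1.31 to 1.47) and 1.20-fold (1.15 to 1.26), and did not pass limma over both lines (adjusted p = 0.920). Of 7 measured co-activators and DNA-binding partners other than TEAD1, 4 were higher in FTC-133 and 5 in 8505C, with median log2 ratios of 0.08 and 0.04. Across all genes tested, 11497 of 19899 were higher in FTC-133 and 54.7% in 8505C. VGLL3, a cofactor that competes for TEAD factors, was at 1.28 and 4.46 TPM in FTC-133 and at 142 and 152 TPM in 8505C; VGLL3 was the 1 gene of this list past 2-fold in FTC-133. VGLL4, a TEAD-binding repressor, had the largest log2 ratio of this list in 8505C, 0.28.

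Of 17 listed Hippo kinases and adaptors, 16 were measured in FTC-133 with 7 higher and 9 lower, and 17 in 8505C with 11 higher and 6 lower. The medians were -0.03 and 0.05, and of all genes tested 42.2% were lower in FTC-133 and 54.7% higher in 8505C. AMOT, the founding angiomotin, was at 0.497 and 3.63 TPM in FTC-133, a ratio of 7.31 (4.71 to 11.9) on few reads, and at 4.19 and 2.44 TPM in 8505C. It was the 1 gene of this list past 2-fold on the log2(TPM + 1) scale, in FTC-133. WWC1, a scaffold of LATS activation, was at 4.32 and 8.73 TPM in FTC-133, and STK3, which codes for the kinase MST2, had a log2 ratio of 0.34 in 8505C. By limma over both lines, 0 of the 7 co-activators and partners and 0 of the 17 Hippo genes passed with CRABP1 (1 and 0 had an unadjusted p under 0.05).

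A list of 15 further YAP and TAZ targets was set beside the members. Of 14 measured in each line, 9 were lower in FTC-133 (median -0.22), against 42.2% of all genes tested. In 8505C 9 were higher (median 0.08), against 54.7%. By limma 0 passed with CRABP1 (2 had an unadjusted p under 0.05). IGFBP3, which binds insulin-like growth factors, was at 19.1 and 5.02 TPM in FTC-133 and at 341 and 205 TPM in 8505C. GADD45A, a growth arrest gene that p53 also induces, was at 220 and 394 TPM in FTC-133 and at 41.1 and 64.6 TPM in 8505C. These 2 genes had the largest ratios of the list in both lines, and each kept its direction across the lines: IGFBP3 lower and GADD45A higher with CRABP1. Between the lines, 7 of the 14 passed limma, 5 higher in 8505C and 2 lower. In either direction 35.2% of all genes tested passed, and 44% of the protein-coding genes averaging 30 TPM or more.

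CCN1, CCN2, THBS1 and ANKRD1 are also known targets of serum response factor or TGF-beta, and lists for both were set beside them. Of 11 measured SRF and MRTF targets, 5 were lower in FTC-133 and 6 in 8505C, with medians of 0.01 and -0.04. For comparison, 42.2% of all genes tested were lower in FTC-133 and 7957 of 17561 in 8505C. ACTA2, smooth muscle actin, was at 28.5 and 12.6 TPM in FTC-133, 2.26-fold lower with CRABP1 (1.91 to 2.68), and at 4.03 and 3.31 TPM in 8505C. CNN1 had a log2 ratio of 0.63 in FTC-133 and TAGLN of -0.37 in 8505C. Of 5 TGF-beta targets, 3 were higher in FTC-133 and 1 in 8505C, with medians of 0.23 and -0.02. Higher among all genes tested were 11497 of 19899 in FTC-133 and 54.7% in 8505C. TGFBI, a secreted matrix adaptor, was at 11.0 and 18.4 TPM in FTC-133 and at 770 and 539 TPM in 8505C. PMEPA1 had a log2 ratio of -0.43 in FTC-133 and SMAD7 of -0.19 in 8505C. By limma over both lines 0 genes of these 2 lists passed with CRABP1 (0 and 0 had an unadjusted p under 0.05).

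**Figure D5:**
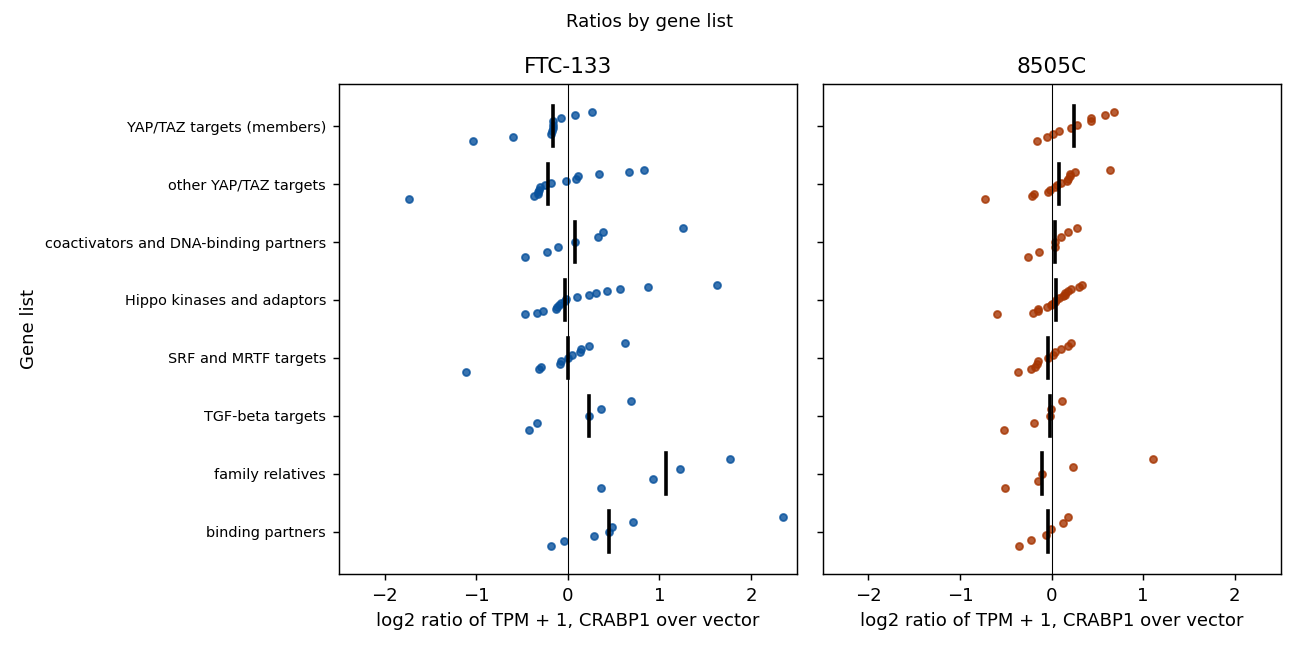
Log2 ratio of TPM + 1, CRABP1 over vector, for each measured gene of 8 lists in FTC-133 (left) and 8505C (right); black bars mark list medians. The median of the members is -0.16 in FTC-133 and 0.24 in 8505C, and the family relatives in FTC-133 lie at 0.36 or above.

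Of the 10 listed relatives of members, 4 were measured in FTC-133. All 4 were higher there with CRABP1, with a median log2 ratio of 1.07, and 2 passed 2-fold. Of all 19899 genes tested, 11497 were higher there, and 6.02% were higher by 2-fold. CCN5, a CCN protein without the C-terminal domain, was at 12.3 and 44.6 TPM in FTC-133, 3.62-fold higher (3.20 to 4.10), and at 11.9 and 8.12 TPM in 8505C. THBS2, the closest relative of THBS1, was at 17.4 and 42.1 TPM in FTC-133, 2.41-fold higher (2.19 to 2.66), and at 245 and 228 TPM in 8505C. The level of THBS1 was 4.44-fold that of THBS2 in FTC-133 with vector, and with CRABP1 THBS2 was 1.13-fold above THBS1. In 8505C THBS1 stayed 9.20-fold and 10.5-fold above THBS2. Of 5 measured relatives in 8505C, 2 were higher, against 54.7% of all genes tested. The 2 included ANKRD2, a muscle relative of ANKRD1, at 2.98 and 7.61 TPM.

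Of all genes tested, 11497 of 19899 were higher with CRABP1 in FTC-133 and 54.7% in 8505C. Among 7 binding partners of the secreted and surface members, 5 were higher in FTC-133 (median 0.45). In 8505C, 2 of 6 measured partners were higher (median -0.04). TFPI2 had the largest ratio, 5.09 in FTC-133 (4.93 to 5.27) and 0.778 in 8505C (0.742 to 0.817). CD36, a receptor for THBS1, was at 32.9 and 54.2 TPM in FTC-133 and at 0.235 and 0.217 TPM in 8505C, the line with the higher THBS1 level. CD47, also a receptor for THBS1, was at 50.8 and 69.6 TPM in FTC-133 and at 95.2 and 81.1 TPM in 8505C. By limma over both lines 0 relatives and 0 binding partners passed with CRABP1 (0 and 0 had an unadjusted p under 0.05).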

How the data were processed

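RNA of 4 libraries was sequenced, and the authors deposited 1 table of TPM values for 58884 Ensembl genes, each column summing to 1000000. The submitters' processing notes name FastQC, Trimmomatic 0.38, featureCounts 2.0.0 and GRCh38. Aligner, annotation and strand setting: not given in the sources used here. Columns were assigned to samples by name. TPM multiplied by the exon length of GENCODE 29 (58611 identifiers matched) gave the reads behind intervals and floors once divided by the worth of 1 read in a library. From 90.5% to 91.6% of the values no larger than 50 reads then lay within 0.02 of a whole number. Genes of 8 lists and of 5 marker sets were matched by symbol.

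Log2 ratios use TPM with 1 added, so the ratios of low genes are understated, and cover genes averaging 1 TPM or more in the compared libraries; ratios with an interval are plain TPM. Over both lines, limma 3.58.1 in R 4.3.3 was fitted with a mean-variance trend, cell line and transfection as terms and Benjamini-Hochberg adjustment at 0.05. The fit was first run on simulated counts with little spread and equal changes in both lines. That run does not show how the fit behaves on these libraries. With no separate cultures stated, the p-values reflect just the spread of these libraries, which may be technical. All else was computed in Python 3.11.15 (SciPy 1.17.1, NumPy 2.4.6, pandas 2.3.3). All 10 members are named, and of each other list the 2 genes with the largest ratio in each line. YAP1, WWTR1, marker genes and the 3 genes nearest to CCN1 and to CCN2 are named too. TEAD2, TEAD3, TEAD4, LATS1, FEZ2 and TFPI were added after their values were seen. The members and lists were chosen with earlier results of these data known, and the background of protein-coding genes averaging 30 TPM or more was added after seeing the data. Tried besides were 0.1 as the pseudocount, no filter, a filter at 5 TPM, median-ratio scaling, removal of mitochondrially encoded genes, a 1.5-fold rule, no trend and no term for the other factor.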

Additional observations from a re-analysis of the deposited data

Results flagged for a closer look

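In 5 of the 10 genes the ratio of CRABP1 over vector went in opposite directions in the 2 lines, with the counting intervals on opposite sides of 1, as in 9.24% of all genes measured in both lines and 18.3% of the protein-coding ones averaging 30 TPM or more. The ratios in FTC-133 and 8505C were 0.879 and 1.35 for CCN1, 0.895 and 1.60 for CCN2, 0.656 and 1.16 for CRIM1, 0.480 and 1.06 for THBS1 and 0.884 and 1.21 for TEAD1. Each ratio compares 1 library with 1 library, and the difference between the lines was not tested.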

How the results depend on the processing

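The directions of the members within a line were recomputed under 6 settings, and only LATS2 in 8505C changed sign, to a log2 ratio of -0.010 with median-ratio scaling. Filters leave the ratio of a gene as it is, and a pseudocount cannot change its sign. Only median-ratio scaling and removal of mitochondrially encoded genes could therefore change a direction. By a 1.5-fold rule in place of 2-fold, the count of members past it was 2 instead of 1 in FTC-133 and 2 instead of 0 in 8505C. In 8505C, AJUBA fell short of 1.5-fold with median-ratio scaling and without mitochondrially encoded genes. Over both lines, 0 members were called with CRABP1 under every setting, while the call of CRABP1 itself gave way to 0 genes under median-ratio scaling, no filter, 0.1 as the pseudocount, mitochondrially encoded genes removed, no trend and no term for cell line. Between the lines, 7 members were called under 5 of the 7 alternatives, 6 with no trend, where TEAD1 lost its call, and 0 with no filter, where 0 of all genes were called by limma and 9305 had an unadjusted p under 0.05. The labels give no replicate numbers to pair by; the fit with cell line as a term already compares CRABP1 with vector within each line, and its counterpart without that term called 0 members and 0 genes. Leaving out a library would leave limma no residual degree of freedom and was not run. Each member had at least 934 reads, and counting error still left the direction of AMOTL2 in FTC-133 and of LATS2 in 8505C unresolved; the single library per group limits all of them.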
